A study of Mus musculus with 11 samples.

Results

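Ciliated ependymal cells of the mouse brain were chosen by their measured UMI counts, as the cells of 11 single-cell RNA libraries in which at least 3 of Foxj1, Ccdc153, Tmem212, Dynlrb2, Tmem107 and Rarres2 had a UMI (a unique molecular identifier, 1 counted RNA molecule), Tmem212, Ccdc153 or Foxj1 among them, and fewer than 2 of P2ry12, Tmem119, Cldn5, Mog, Folr1, Clic6 and Kcnj13, genes of microglia, endothelium, oligodendrocytes and choroid plexus. This rule found 823 of 132437 cells (0.621%) with over 500 genes, over 1000 UMIs and under 25% mitochondrial UMIs. Each library came from the right brain of 1 mouse: sham + WT (replicates 1, 2 and 3), sham + Lrg1-/- (1, 2 and 5), MCAO/R + WT (1 and 2) and MCAO/R + Lrg1-/- (1, 2 and 5). MCAO/R is transient occlusion of the middle cerebral artery followed by reperfusion, which gives a focal stroke, and sham mice had the operation without the filament entering the internal carotid artery. WT mice were C57BL/6 males of 8 to 10 weeks per the study's methods, and Lrg1-/- mice carried a conventional deletion of Lrg1 in every tissue on a C57BL/6N background, given as 3 months old. The study's methods list several reperfusion times without saying which the sequenced mice had. Its discussion speaks of effects at an hour and does not say from when this was counted. The labels call the tissue brain with no further region.

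Ependymal cells form a single epithelial layer between the ventricles and the brain. Each carries a tuft of motile cilia whose beat moves cerebrospinal fluid along the ventricle wall. The motile cilium is built on the axoneme, a ring of microtubule doublets with dynein arms as motors, nexin links between doublets and radial spokes that reach a central pair. Foxj1 and factors of the Rfx family, which bind the X-box motif, switch on the genes of this apparatus, and intraflagellar transport carries its parts into the cilium. Ependymal cells are glia and hold Vim and, at a low level, Gfap, intermediate filament genes that rise in reactive astrocytes after injury.

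Promoters are shown of members from both sides of the description that follows: 3 axoneme genes with an X-box and 2 reactive glia genes, from RefSeq on GRCm38.p6. Each runs 5′ to 3′ from 250 bases before to 50 after the gene's start, with the motif match in capitals: the X-box (GTNNCC and GNAAC with 3 bases between) in Hydin, Enkur and Fbxl13, the STAT motif (TTCCNGGAA) in Gfap and the glucocorticoid response element (GNACA and TGTNC with 3 bases between, and any base on each side) in Serpina3n.
Hydin promoter, chr8:110266727-110267026, plus strand: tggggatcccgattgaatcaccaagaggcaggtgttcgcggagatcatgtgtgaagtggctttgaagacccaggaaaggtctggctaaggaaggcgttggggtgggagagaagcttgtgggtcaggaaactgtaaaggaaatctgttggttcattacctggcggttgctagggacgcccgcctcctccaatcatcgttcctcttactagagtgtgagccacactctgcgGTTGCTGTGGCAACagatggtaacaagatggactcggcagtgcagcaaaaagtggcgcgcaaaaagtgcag
Enkur promoter, chr2:21205316-21205615, minus strand: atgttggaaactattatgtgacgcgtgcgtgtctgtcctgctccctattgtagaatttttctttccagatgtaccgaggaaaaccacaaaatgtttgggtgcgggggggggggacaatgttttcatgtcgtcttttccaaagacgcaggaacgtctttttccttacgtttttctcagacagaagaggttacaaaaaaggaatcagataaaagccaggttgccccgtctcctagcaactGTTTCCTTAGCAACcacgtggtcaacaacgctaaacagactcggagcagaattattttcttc
Fbxl13 promoter, chr5:21645556-21645855, minus strand: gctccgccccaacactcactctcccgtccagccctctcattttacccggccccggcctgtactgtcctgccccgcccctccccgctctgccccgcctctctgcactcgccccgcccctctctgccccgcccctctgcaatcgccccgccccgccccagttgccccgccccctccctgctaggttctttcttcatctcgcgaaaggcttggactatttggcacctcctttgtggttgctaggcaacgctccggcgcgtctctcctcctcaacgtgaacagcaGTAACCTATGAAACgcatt
Gfap promoter, chr11:102897151-102897450, minus strand: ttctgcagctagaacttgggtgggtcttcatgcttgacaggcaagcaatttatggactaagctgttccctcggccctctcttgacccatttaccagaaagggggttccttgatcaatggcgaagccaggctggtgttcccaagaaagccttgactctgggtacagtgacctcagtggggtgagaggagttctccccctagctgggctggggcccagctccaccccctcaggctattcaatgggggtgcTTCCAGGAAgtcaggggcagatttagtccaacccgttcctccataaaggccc
Serpina3n promoter, chr12:104406458-104406757, plus strand: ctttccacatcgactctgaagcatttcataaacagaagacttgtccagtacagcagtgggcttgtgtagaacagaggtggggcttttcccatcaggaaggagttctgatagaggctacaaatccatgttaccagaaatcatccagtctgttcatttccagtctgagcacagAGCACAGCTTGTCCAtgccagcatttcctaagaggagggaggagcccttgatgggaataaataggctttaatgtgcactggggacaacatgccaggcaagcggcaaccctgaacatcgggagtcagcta
All motifs were searched on both strands. Only the X-box was marked in axoneme gene windows, and only the STAT motif and the glucocorticoid response element in reactive glia windows. Each window above has a single stretch in capitals, so no marked match lies over another, and matches of the other motifs are not shown. Of 90 promoter windows of axoneme genes, 15.6% held an X-box, against 2.17% of 32851 windows of all genes. Among genes rather than windows, an X-box was in 14 of 81 axoneme genes, 6 of 13 dynein assembly factors and 7 of 34 intraflagellar transport genes, against 673 of 27025 of all genes (2.49%). A forkhead motif (TGTTTAC), also searched, was in 7 of 81, 0 of 13 and 0 of 34 of these genes, against 1095 of 27025 (4.05%). The STAT motif was in 3 of 27 reactive glia genes (Gfap, Icam1 and Steap4) and 1.35% of all genes, and the glucocorticoid response element in 2 of 27 (Serpina3n and Slc10a6) and 0.537% of all genes. That element was also in 1 of 15 glucocorticoid-responsive genes (Sgk1), and the X-box was in 1 of these 15 and in 2 of the 27 reactive glia genes, so it was not limited to cilium genes. These matches describe letters in a 300-base window and say nothing of whether a factor was bound.

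The libraries differed in ways that touch every result below. MCAO/R + Lrg1-/- replicate 5 held 381 of the 823 cells (46.3%), and the other libraries held between 7 and 124. The median UMIs of an ependymal cell ran from 2206 in sham + WT replicate 1 and 3225 in MCAO/R + Lrg1-/- replicate 5 to 12684 in MCAO/R + WT replicate 1. MCAO/R + Lrg1-/- replicates 1 and 2 held Xist at 366 and 476 CPM (UMI counts scaled to the total of the cells summed) over all their cells and Y-linked genes at 0.488 and 0.515 CPM, whereas the other 9 libraries held Xist at 0 to 1.05 CPM and Y-linked genes at 209 to 487 CPM. Red blood cell genes took 0.00486% to 0.0128% of ependymal UMIs in WT libraries and 0.168% to 5.30% in Lrg1-/- libraries, and choroid plexus genes 0.0706% to 0.118% and 0.292% to 1.98%. These shares separate the genotypes, so in this tissue a difference between genotypes and a difference in these foreign RNAs cannot be told apart. No ependymal barcode occurred in 2 libraries, while 2034 of 130382 barcodes of all filtered cells (1.56%) did.

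As a group, the cells that met the rule held more axoneme UMIs than the other cells, in genes that the rule did not use. Over 96 axoneme genes outside the rule, the summed share of a cell's UMIs had a median of 0.739% (quartiles 0.263% and 1.98%) in the 823 cells, against 0.0325% in the other 131614 cells, 0.0634% in 1794 astrocytes and 0.147% in 4611 choroid plexus epithelial cells. Dnah12, a heavy chain of the inner dynein arm, was detected in 51.0% of ependymal cells, 3.2% of all others and 1.95% of astrocytes. Hydin, which is needed for the central pair, was detected in 42.0% and 2.25%, and Spag17, also of the central pair, in 43.0% and 2.0%. With every cell thinned to 1000 UMIs the shares for Dnah12 were 30.5% of ependymal cells and 1.05% of the rest, so the gap was also there at equal depth. Median depths before thinning were 3771 UMIs in ependymal cells and 6188 in the other cells. The genes with the largest ratio to all other cells in the library where that ratio was lowest were led, among named genes, by Cfap221 (16.8 times), Ptpn20 (16.7 times), Crocc2 (15.9 times), Ttll6 (15.4 times) and Ttc29 (15.3 times), of which Cfap221 belongs to the central pair and Crocc2 to the ciliary rootlet. All of these values describe the chosen cells and were not tested, since the markers that chose them move with them.

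How well the label held differed with the number of markers. Among cells that met the rule, the median axoneme share was 0.268% in the 345 cells with 3 markers, 0.830% in 195 with 4, 1.45% in 112 with 5 and 2.45% in 171 with all 6. Just outside the threshold, 1365 cells with 2 markers had a median of 0.0588%. In 323 of the 823 cells the share lay below 0.5%, and 79 lay between 0.4% and 0.6%, close to that limit. It lay below 0.5% in 67.8% of the cells with 3 markers and above 1% in 349 of the 823 (42.4%), where the 99th percentile of the other cells was 0.721%. The cells of low share were not spread evenly.

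Library medians of the axoneme share were 1.25%, 3.10% and 2.89% in sham + WT, 1.83%, 2.32% and 2.45% in sham + Lrg1-/-, 1.82% and 2.22% in MCAO/R + WT, and 1.48%, 0.843% and 0.473% in MCAO/R + Lrg1-/-. The last group had the 2 lowest libraries, replicates 2 and 5, in which 42.9% and 53% of the cells lay below 0.5%. Replicate 1 of that group held 41.7%, on 12 cells. The shares below 0.5% were 21.8%, 9.09% and 12.8% in sham + WT. They were 37%, 42.9% and 10% in sham + Lrg1-/-, and 20.5% and 24% in MCAO/R + WT. Replicate 2 of sham + Lrg1-/-, with 7 cells, reached the same range.

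**Figure D1:**
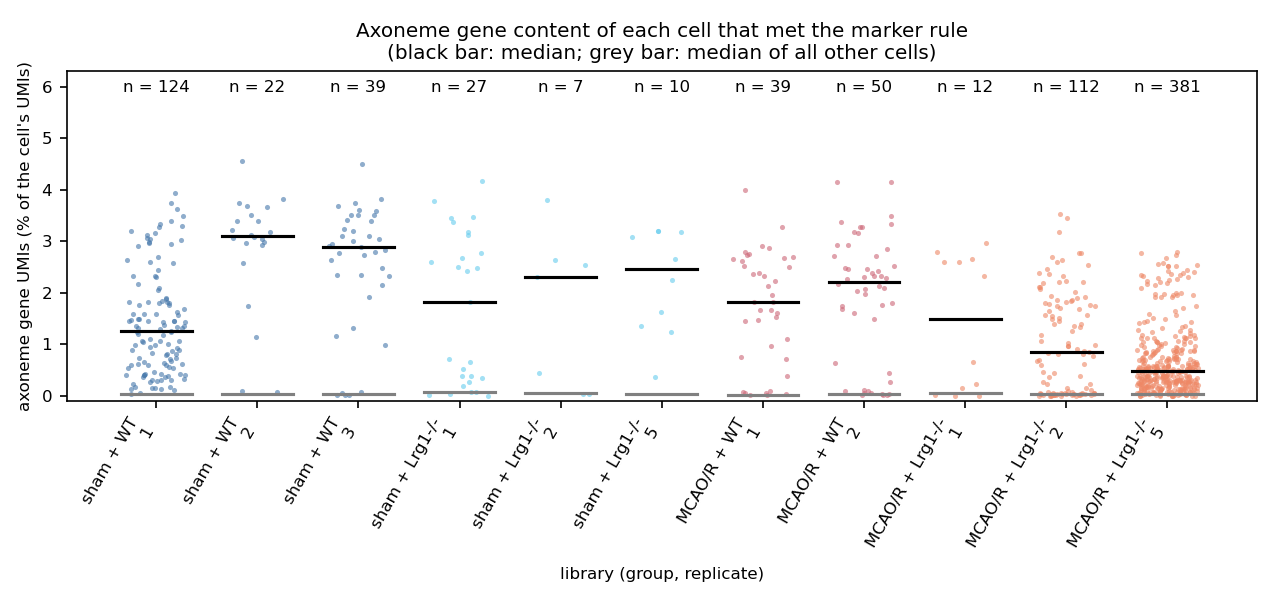
Each point is 1 cell that met the marker rule, by library (x axis) and share of its UMIs in 96 axoneme genes outside the rule (y axis, %), with the library's median (black bar) and the median of its other cells (grey bar). The medians run from 0.473% in MCAO/R + Lrg1-/- replicate 5 to 3.10% in sham + WT replicate 2, and every library's other cells lie at 0.0202% to 0.0670%.

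The exclusion genes removed most of the cells with the fullest marker set. Of 1077 cells with all 6 markers, 906 carried 2 or more exclusion genes. Folr1, a folate receptor used as a choroid plexus gene, was detected in 80.3% of the 1077 cells and in 16.3% of the 131614 cells outside the rule, which include the 906, and Cldn5, an endothelial tight junction gene, in 63.3% and 53.4%, at median depths of 16157 and 6188 UMIs. Thinned to 1000 UMIs, Folr1 was detected in 17.2% of the 1077 cells and 6.61% of the cells outside the rule, and Cldn5 in 13.6% and 27.7%, so the direction for Cldn5 turned at equal depth. The 906 removed cells had a median axoneme share of 2.07% and a median of 17507 UMIs, against 2.45% and 10688 UMIs in the 171 that were kept. High UMIs are where doublets are found, and the part of doublets in these cells was not tested. For this reason each comparison is given for the 823 cells of the rule and beside it for the 1077 cells with all 6 markers, a second set chosen after the data were seen. The sets share 171 cells and all libraries, so they are not independent. A narrower set was also added after the data were seen. It holds the 495 of the 1077 cells with fewer than 2 of P2ry12, Tmem119, Cldn5 and Mog. Below it is called 6-marker cells with choroid plexus genes allowed, since only the choroid plexus exclusion genes were not used. In the 6-marker set the axoneme medians were 2.77% to 2.90% in sham + WT and 2.37% and 2.53% in MCAO/R + WT, but 2.16%, 0.966% and 0.435% in sham + Lrg1-/- and 0.648%, 1.78% and 1.66% in MCAO/R + Lrg1-/-, so the group of lowest values moved to other libraries.

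Lrg1, which encodes a secreted glycoprotein and is the targeted gene (chr17:56119678-56122001, minus strand, GRCm38), was read first. Ependymal cells held 0 Lrg1 UMIs in each of the 6 Lrg1-/- libraries. Sham + WT libraries held 2, 1 and 0 UMIs, or 3.82, 5.41 and 0 CPM, and the MCAO/R + WT libraries held 10 and 105 UMIs, or 20.2 and 159 CPM. Over all cells, Lrg1 was at 1.72, 5.76 and 2.51 CPM in sham + WT, 132 and 113 CPM in MCAO/R + WT, and 0 UMIs in 5 Lrg1-/- libraries and 1 UMI in the sixth, so the label of the genotype held in every library. In the 823 cells Lrg1 was too low to be tested. In the 6-marker cells it was at 2.85, 2.01 and 2.86 CPM in sham + WT and 17.4 and 27.7 CPM in MCAO/R + WT, higher by 3.06 ± 0.453 on the log2 scale (± SE here and below, adjusted p = 0.0371 by edgeR's quasi-likelihood test). That call was kept in 6 of 11 fits that each left 1 library out. The level in 6-marker cells after MCAO/R lay below that of all cells, and an origin of these UMIs in other cells was not tested.

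The share of ependymal cells did not separate the groups. The shares were 0.898%, 0.223% and 0.413% in sham + WT, 0.285%, 0.123% and 0.308% in sham + Lrg1-/-, 0.392% and 0.401% in MCAO/R + WT, and 0.186%, 0.625% and 1.11% in MCAO/R + Lrg1-/-. Sham and MCAO/R libraries overlapped, as did WT and Lrg1-/- libraries, while the 3 sham + Lrg1-/- libraries lay below both MCAO/R + WT libraries. MCAO/R libraries had 0.544% ± 0.355 (SD, n = 5) and sham libraries 0.375% ± 0.273 (SD, n = 6), and the difference averaged within genotypes was 0.144 percentage points (two-sided exact permutation test within genotype, p = 0.495, where 0.005 is the smallest p it allows). The difference in the share of ependymal cells, MCAO/R against sham, was 0.0261 without MCAO/R + Lrg1-/- replicate 5, 0.0722 without sham + WT replicate 2, 0.241 without sham + WT replicate 1 and 0.258 without MCAO/R + Lrg1-/- replicate 1. Lrg1-/- libraries had 0.440% ± 0.373 (SD, n = 6) and WT libraries 0.465% ± 0.254 (SD, n = 5), a difference within surgery of −0.0136 percentage points (exact permutation, p = 0.965). The order of the libraries depended on how cells were taken. Thinned to 1000 UMIs, sham + WT held the shares 1.28%, 0.822% and 1.07% and MCAO/R + WT 0.573% and 0.554%, and the surgery difference became −0.244 (exact permutation, p = 0.215). It was −0.178 with all 6 markers (exact permutation, p = 0.575). Both comparisons rest on dissociated cells, in which the number recovered and the number in the tissue cannot be told apart.

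**Figure D2:**
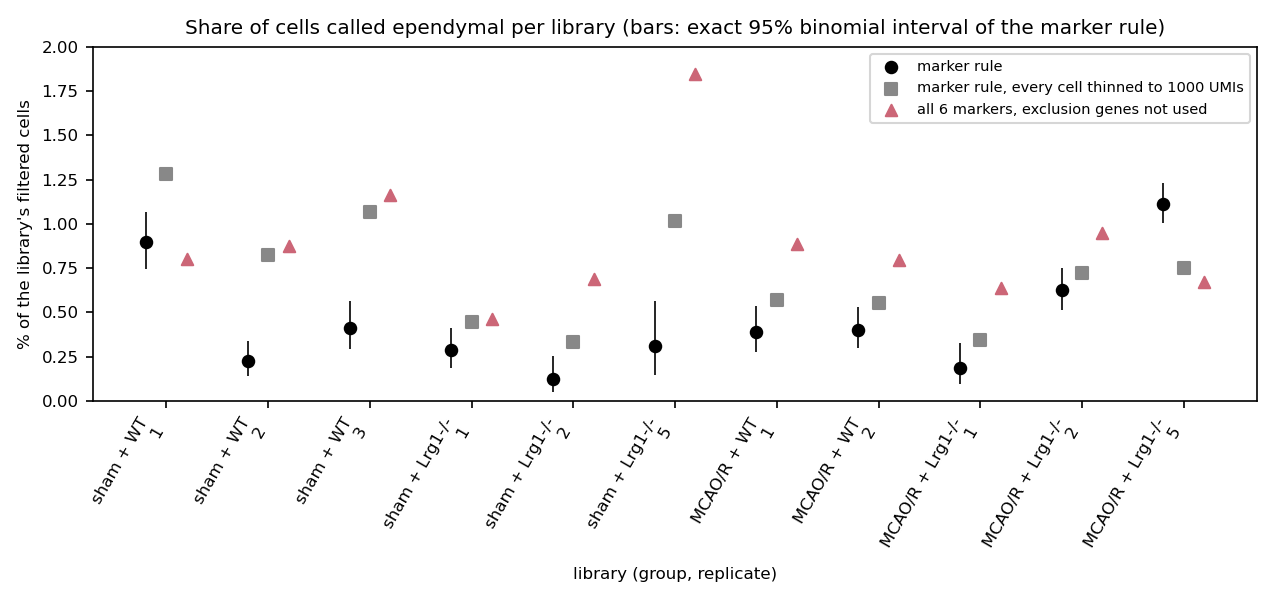
Share of each library's filtered cells (y axis, %) that met the marker rule (black, with exact 95% binomial intervals, which cover counting error only), the rule after thinning to 1000 UMIs (grey squares) and all 6 markers (triangles), by library. The rule puts MCAO/R + Lrg1-/- replicate 5 highest at 1.11%, whereas the 6-marker set puts sham + Lrg1-/- replicate 5 highest at 1.85%.

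The question the design puts first, the response of ependymal cells to MCAO/R, was tested on counts summed per mouse, as a mean over both genotypes. The fit held 10 libraries, since the 7 cells of sham + Lrg1-/- replicate 2 were too few. Of 9620 genes, 314 passed the test (3.26%; 118 higher and 196 lower), where passing means an adjusted p under 0.05 and a change over 0.25 on the natural-log scale. In the 6-marker cells, with 11 libraries, 508 of 13558 passed (3.75%, 296 higher and 212 lower). Levels of sham and MCAO/R libraries did not overlap for 4.96% and 2.36% of the genes. In both sets 95 genes passed in the same direction, 30.3% of the first list and 18.7% of the second. The counts depended on the fit and on single libraries. They were 3 of 11211 genes at a mitochondrial limit of 10%, 15 with the replicate number as a block (110 in the 6-marker cells) and 45 of 2208 with cells thinned to 1000 UMIs. Here and below, the thinned fit applied the rule again to thinned counts. It took 986 cells, of which 307 were among the 823, so its counts differ in cells as well as in depth. The mitochondrial limit of 10% keeps sham + Lrg1-/- replicate 5 only if all its 10 cells pass, since 10 is the minimum. That fit tested 11211 genes, against 11322 without that library and 9620 in the main fit, and the part of that library was not tested. Leaving out 1 library of a group of 2, here and below, leaves a lone library, which is then assumed to vary like those of the other groups. The count in the 823 cells fell to 35 without sham + Lrg1-/- replicate 5, 38 without sham + Lrg1-/- replicate 1, 56 without MCAO/R + WT replicate 1, 78 without sham + WT replicate 3, 90 without MCAO/R + Lrg1-/- replicate 2, 125 without sham + WT replicate 2 or MCAO/R + WT replicate 2 and 203 without MCAO/R + Lrg1-/- replicate 5, and rose to 557 without MCAO/R + Lrg1-/- replicate 1. The 6-marker count fell to 83 without MCAO/R + WT replicate 1, 210 without sham + WT replicate 3, 228 without MCAO/R + Lrg1-/- replicate 2, 255 and 260 without sham + WT replicates 2 and 1, 259 without MCAO/R + WT replicate 2, 285 without MCAO/R + Lrg1-/- replicate 5 and 333 without sham + Lrg1-/- replicate 2. It was 1049 without MCAO/R + Lrg1-/- replicate 1. Where a group held 0 UMIs of a gene, the fitted fold change depends on the prior count, so levels or UMIs are given for such genes instead.

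Of 27 reactive glia genes tested, out of 35 listed, 11 rose after MCAO/R and none fell (1.23% of all tested genes were higher), with a median log2 fold change of 1.57 against 0.02 for all genes. In the 6-marker cells 15 of 32 were higher and 1, Hspb1, was lower (2.18% and 1.56% of all genes), with a median of 1.31. Taken apart by genotype, which shares no library, 22 of the 27 genes had a positive log2 fold change in both WT and Lrg1-/- mice and none a negative one in both, and in the 6-marker cells 23 of 32 were positive and 4 negative in both. Of all genes, 3023 of 9620 were positive and 2956 negative in both genotypes, and 4309 and 3908 of 13558 in the 6-marker cells. The number of higher genes fell to 1 without sham + Lrg1-/- replicate 1, 2 without sham + Lrg1-/- replicate 5, 5 without MCAO/R + WT replicate 1, 6 without sham + WT replicate 3 and 7 without sham + WT replicate 2 or MCAO/R + Lrg1-/- replicate 2, while the list's median stayed between 1.13 and 2.15. It was 1 of 31 at a mitochondrial limit of 10%, 3 of 27 with the replicate number as a block and 5 of 16 with cells thinned to 1000 UMIs. In the 6-marker cells the number ran from 8 without MCAO/R + WT replicate 1 to 17.

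Serpina3n (chr12:104406729-104414329, GRCm38), a serine protease inhibitor and a marker of reactive glia, was among the clearest. Its level was 9.42, 5.47 and 0 CPM in sham + WT, 0 and 0 in sham + Lrg1-/-, 287 and 444 in MCAO/R + WT, and 324, 425 and 156 in MCAO/R + Lrg1-/-. Every MCAO/R library lay above every sham library. The 5 sham libraries held 6 UMIs in WT and 0 in Lrg1-/- mice, against 447 and 717 after MCAO/R (adjusted p = 0.000542, edgeR). With all 6 markers the 6 sham libraries lay between 0 and 3.08 CPM and the 5 MCAO/R libraries between 209 and 574 CPM (8.43 ± 0.474, adjusted p = 2.64e-07). Its call was kept in 10 of 10 and 11 of 11 fits with 1 library left out. In WT mice alone the change was 6.0 ± 0.632 (adjusted p = 0.00213).

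Gfap and Vim, the intermediate filament genes, moved the same way. Gfap was at 141, 10.9 and 91.1 CPM in sham + WT, 22.8 and 0 in sham + Lrg1-/-, 783 and 271 in MCAO/R + WT and 748, 594 and 295 in MCAO/R + Lrg1-/-, with no overlap between sham and MCAO/R (log2 fold change 3.96 ± 0.631, adjusted p = 0.00886). In 6-marker cells Gfap was at 39.8 to 101 CPM in sham and 437 to 999 CPM in MCAO/R (3.14 ± 0.191, adjusted p = 4.43e-06, kept in 11 of 11 fits). Vim was at 1124 to 1266 CPM in sham + WT and 646 and 1175 CPM in sham + Lrg1-/-, against 2192 to 4678 CPM after MCAO/R (1.57 ± 0.270, adjusted p = 0.0130). Detection of Gfap does not set ependymal cells apart from astrocytes, as 37.8% of ependymal cells and 37.9% of astrocytes held a Gfap UMI. Astrocyte genes took 0.0919% to 0.278% of ependymal UMIs, with 0.0919% to 0.268% in the sham libraries tested and 0.0968% to 0.278% after MCAO/R.

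S100a4, a calcium-binding protein, was at 5.65 to 11.4 CPM in sham + WT, 15.2 and 95.2 CPM in sham + Lrg1-/-, 656 and 188 CPM in MCAO/R + WT and 212, 623 and 492 CPM in MCAO/R + Lrg1-/- (4.36 ± 0.516, adjusted p = 0.00260, kept in 10 of 10 fits). It was at 8.07 to 60.4 CPM in sham and 286 to 998 CPM in MCAO/R in the 6-marker cells (4.42 ± 0.303, adjusted p = 1.30e-05). Lgals3, a galectin, rose by 2.51 ± 0.364 on the log2 scale (adjusted p = 0.00689) and Emp1, a membrane protein, by 2.90 ± 0.491 (adjusted p = 0.0121). With all 6 markers Timp1, an inhibitor of matrix proteases, lay at 0 to 4.11 CPM in sham and 10.1 to 54.3 CPM after MCAO/R (4.84 ± 0.545, adjusted p = 0.000235), and Steap4, a metalloreductase, at 0 to 1.89 and 8.18 to 16.1 CPM (3.61 ± 0.503, adjusted p = 0.00146). Timp1 missed the threshold in the 823 cells (3.88 ± 1.04, adjusted p = 0.0515), and Steap4 was too low to be tested there. Lcn2, a secreted siderophore binder that neutrophils also hold, passed in the 823 cells (6.99 ± 1.19, adjusted p = 0.00910) and not in the 6-marker cells (2.84 ± 0.950, adjusted p = 0.121).

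Spp1 and 2 further named genes of the higher group, Msr1 and Ms4a6c, are known from macrophages. Spp1, osteopontin, was at 2.85 to 7.53 CPM in sham + WT, 0 and 0 in sham + Lrg1-/-, 76.7 and 36.4 in MCAO/R + WT and 337, 4683 and 1828 in MCAO/R + Lrg1-/- (adjusted p = 0.00541). Msr1, a scavenger receptor, had 0 UMIs in all 5 sham libraries and 185 in the MCAO/R libraries, at least 19.6-fold higher when 3 counts over the sham group stand for 0. Ms4a6c rose from 3 UMIs in sham + WT and 0 in sham + Lrg1-/- to 34 and 302 UMIs after MCAO/R (adjusted p = 0.00606). Microglia and macrophage genes took 0.0959% to 0.317% of ependymal UMIs in sham libraries and 0.137% to 1.04% in MCAO/R libraries, highest in MCAO/R + Lrg1-/- replicate 5, and their part in these changes was not tested.

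**Figure D3:**
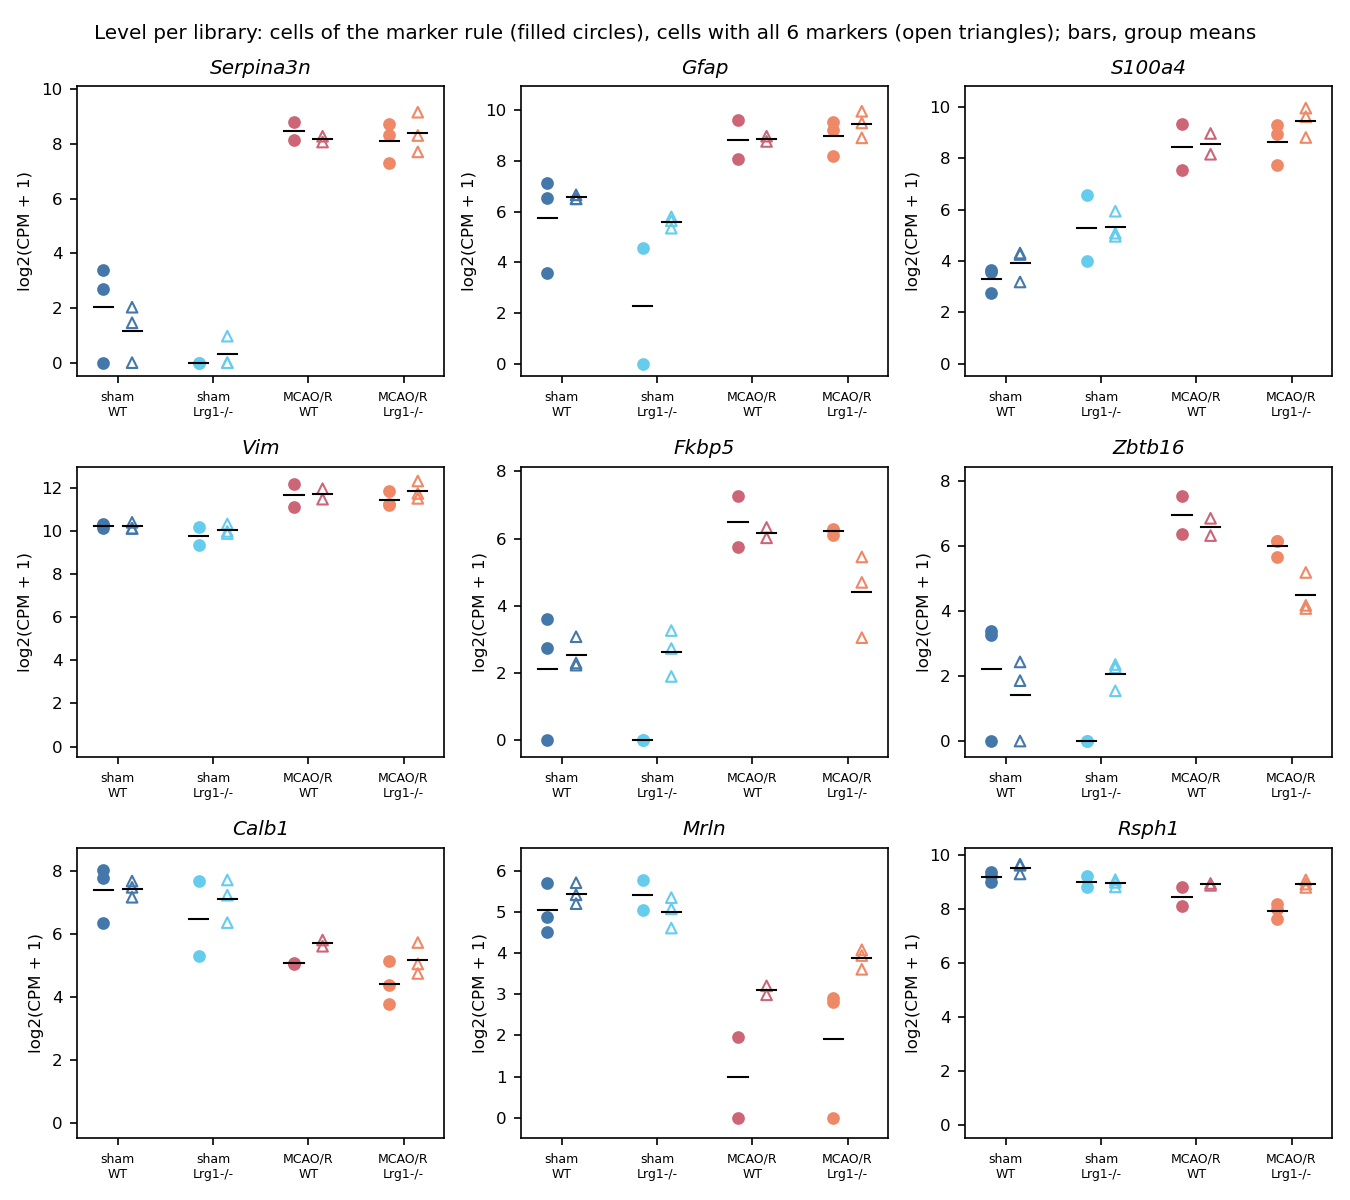
Level of 9 genes as log2(CPM + 1) (y axis) in each library by group (x axis), in cells of the marker rule (filled circles) and cells with all 6 markers (open triangles), with bars at group means. Serpina3n, Gfap, S100a4 and Vim lie higher in every MCAO/R library than in every sham library in both sets, and Calb1 and Mrln lie lower, whereas Rsph1 is closer between sham and MCAO/R in the 6-marker cells.

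Of 17 tested genes known to respond to glucocorticoids, out of 18 listed, 7 rose after MCAO/R and none fell, with a median of 0.95, and 7 of 17 were higher in 6-marker cells, with a median of 0.64 (1.23% and 2.18% of all genes were higher). Lcn2 is counted here and in the reactive glia list. The count fell to 2 without sham + Lrg1-/- replicate 1 or 5 and to 4 without MCAO/R + WT replicate 2. It was 0 of 18 at a mitochondrial limit of 10%, 1 of 17 with the replicate number as a block and 1 of 4 with cells thinned. Zbtb16, a transcription factor, was at 9.42, 0 and 8.54 CPM in sham + WT, 0 and 0 in sham + Lrg1-/-, 80.7 and 186 in MCAO/R + WT and 49.9, 70.8 and 70.3 in MCAO/R + Lrg1-/- (adjusted p = 0.00434, kept in 10 of 10 fits). Fkbp5, a co-chaperone of the glucocorticoid receptor, was at 11.3, 0 and 5.69 CPM, 0 and 0, 52.5 and 153, and 74.8, 68.0 and 77.6 in the same order (adjusted p = 0.00632, kept in 10 of 10 fits). No sham library reached any MCAO/R library for either gene.

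Zbtb16 rose by 4.07 ± 0.409 (adjusted p = 0.000293) and Fkbp5 by 2.98 ± 0.382 (adjusted p = 0.00197) in the 6-marker cells, both in 11 of 11 fits. There Fkbp5 overlapped, with 7.32 CPM in MCAO/R + Lrg1-/- replicate 1 and 8.64 CPM in sham + Lrg1-/- replicate 5. Sgk1, a kinase, and Tsc22d3, a repressor of inflammatory transcription, also rose in both sets, Sgk1 by 1.85 ± 0.340 and 1.13 ± 0.198 and Tsc22d3 by 1.55 ± 0.362 and 1.66 ± 0.206. Plin4, a lipid droplet protein, passed in both sets, from 10 UMIs in sham + WT and 0 in sham + Lrg1-/- to 47 and 83 UMIs after MCAO/R in the 823 cells and by 1.65 ± 0.242 in the 6-marker cells. Per2, a clock gene, rose in the 6-marker cells only as far as the test went (1.23 ± 0.185, adjusted p = 0.00521), with 0.95 ± 0.351 (adjusted p = 0.153) in the 823 cells, and the difference between the sets was not tested.

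The counts of other lists are to be read against all genes tested, of which 1.23% were higher and 2.04% lower in the 823 cells and 2.18% and 1.56% in the 6-marker cells. Of 27 Stat3, NF-kappaB and cytokine genes, 5 were higher (Csf1, Cebpd, Tnfrsf1a, Tnfrsf12a and Cxcl2), and of 28 in the 6-marker cells 5 were higher (Osmr, Cxcl2, Cebpd, Stat3 and Csf1) and Cxcl12 was lower. Cxcl12, a chemokine, lay at 52.4 to 188 CPM in the sham libraries and 10.1 to 40.3 CPM in the MCAO/R libraries of that set (−2.77 ± 0.418, adjusted p = 0.00521). In that set 7 of 11 endothelial and mural genes and 9 of 12 choroid plexus genes were negative in both genotypes and none positive. Of all genes there, 3908 of 13558 were negative and 4309 positive in both. The part of these foreign RNAs in the fall of Cxcl12 was not tested. Of 3 metallothioneins, which bind zinc and copper, Mt2 was higher in both sets (1.5 ± 0.343 and 1.43 ± 0.267) and Mt1 in the 6-marker set (0.88 ± 0.217, adjusted p = 0.0439). Of the p53 and cell death genes, Bax and Mdm2 were higher among 16 tested, and Mdm2, Bcl2l1, Bax and Phlda3 among 22. Of the heat shock and folding genes Hsp90aa1 was lower in both sets (−1.23 ± 0.210 and −1.02 ± 0.223). Interferon-stimulated genes (1 of 29 higher), antigen presentation genes (0 of 14) and nuclear genes of oxidative phosphorylation (0 of 75) gave at most a single call, with 2 of 33, 0 of 17 and 0 of 75 in the 6-marker cells.

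Of the surface and polarity genes, 1 of 27 passed in the 823 cells and 5 of 29 in the 6-marker cells, where 3.26% and 3.75% of all genes passed, so the first count is near the share of all genes. Celsr2, a cadherin of planar polarity, lay in the 6-marker cells at 16.3 to 27.4 CPM in sham and 34.2 to 84.3 CPM after MCAO/R (1.61 ± 0.244, adjusted p = 0.00521), and Cd24a, a surface glycoprotein of ependymal cells and neuroblasts, at 235 to 522 and 592 to 1430 CPM (1.14 ± 0.219, adjusted p = 0.0155). Msn, a linker of membrane and actin, and Numbl were also higher there and Prom1, a protein of apical protrusions, lower. Msn alone passed in the 823 cells. In the 6-marker cells neuron and neuroblast genes took 0.0370% to 0.0875% of UMIs in sham libraries and 0.0987% to 0.174% after MCAO/R. Their part in the rise of Cd24a was not tested.

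In the 823 cells 24 of 95 axoneme genes were lower after MCAO/R and none higher, a count that depended on the cells taken and on the fit. It was 29 of 94 with at least 4 markers (median −0.63) and 24 of 95 with DESeq2 (−0.76). It was 20 of 95 without haemoglobin and choroid plexus genes (−0.74) and 19 of 93 without the highest doublet scores (−0.74). Settings that lowered it further are given below. By list, 7 of 22 dynein arm genes, 6 of 25 radial spoke and central pair genes and 11 of 48 nexin link, ruler and doublet inner proteins were lower after MCAO/R and none higher (2.04% of all genes were lower), with medians of −0.93, −0.82 and −0.71. In these lists 21 of 22, 23 of 25 and 42 of 48 genes had a negative log2 fold change in both genotypes, and 0, 0 and 2 a positive one. Of all genes, 2956 of 9620 were negative and 3023 positive in both. Dnah10, an inner arm heavy chain, was at 181, 268 and 267 CPM in sham + WT, 289 and 339 in sham + Lrg1-/-, 107 and 97.6 in MCAO/R + WT and 74.8, 64.3 and 63.0 in MCAO/R + Lrg1-/- (−1.73 ± 0.204, adjusted p = 0.00260, kept in 10 of 10 fits). Hydin, Enkur and Fbxl13, whose promoters are shown above, changed by −1.12 ± 0.231, −1.27 ± 0.247 and −1.60 ± 0.230. Rsph1, a radial spoke head protein, was at 448 to 646 CPM in sham and 196 to 440 CPM after MCAO/R (−0.89 ± 0.212, adjusted p = 0.0434).

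With all 6 markers 1 dynein arm gene (Nme8), 1 radial spoke gene (Rsph14) and 2 of 49 nexin link and doublet genes (Cfap157 and Tekt3) were lower and none higher (1.56% of all genes were lower), and the medians were −0.10, −0.02 and −0.07. There 9 of 22, 7 of 25 and 17 of 49 genes were negative in both genotypes, and 1, 2 and 7 positive. Of all genes in that set, 3908 of 13558 were negative and 4309 positive in both. Dnah10 was then at −0.52 ± 0.187 (adjusted p = 0.144), Hydin at −0.15 ± 0.195 (adjusted p = 0.740) and Rsph1 at −0.33 ± 0.134 (adjusted p = 0.205). Entry to the 6-marker set needs a UMI of all 6 markers. Its median axoneme share was 2.13%, against 0.739% in the 823 cells, and its median depth 16157 UMIs, against 3771. A fall that takes cells out of that set could not be seen in it. The part of the entry limit and of depth in the difference between the sets was not tested. The count of 4 lower genes of 96 became 0 without MCAO/R + Lrg1-/- replicate 2, MCAO/R + WT replicate 1 or sham + WT replicate 1 or 2, and 1 without MCAO/R + WT replicate 2, sham + Lrg1-/- replicate 2 or sham + WT replicate 3. It became 2 without MCAO/R + Lrg1-/- replicate 5, 6 with 1 higher without MCAO/R + Lrg1-/- replicate 1, and 13 without sham + Lrg1-/- replicate 5, the 6-marker library of lowest axoneme share. The median over the 96 genes ran from −0.21 in the last of these fits to 0.01 without sham + Lrg1-/- replicate 1. In the 823 cells the number of lower axoneme genes was 24 of 95 and fell to 2 without sham + Lrg1-/- replicate 5, 3 without MCAO/R + WT replicate 1, MCAO/R + WT replicate 2 or sham + WT replicate 3, 4 without MCAO/R + Lrg1-/- replicate 2 or sham + Lrg1-/- replicate 1, 6 without sham + WT replicate 2 and 11 without MCAO/R + Lrg1-/- replicate 5, and was 42 without MCAO/R + Lrg1-/- replicate 1. It was 0 of 96 at a mitochondrial limit of 10% (median −0.72), 1 of 95 with the replicate number as a block (−0.77) and 0 of 72 with cells thinned to 1000 UMIs (−0.12). In the narrower set of 495 6-marker cells with choroid plexus genes allowed, 20 of 96 were lower (−0.29). Of the 986 cells in the thinned fit, 307 were among the 823. With at least 20 cells per library, which leaves 1 sham + Lrg1-/- library, the axoneme median was −0.77. The medians of the reactive glia and glucocorticoid lists were 2.10 and 1.62 at that limit. The share of cells of low axoneme content in the 823 cells is counted from these same genes, so it is tied to their level. That share was 9.09% to 37% in the sham libraries tested and 20.5% to 53% after MCAO/R, and the part of such cells in the lower level was not tested. The mitochondrial share of UMIs moved with the lower axoneme level, with library medians of 4.03% to 8.38% in the sham libraries tested and 3.71% to 4.71% after MCAO/R. All 13 mitochondrially encoded genes had a negative log2 fold change in both genotypes in the 823 cells (1 passed) and 73 of 83 cytosolic ribosomal protein genes a positive one (4 passed). In the 6-marker cells these were 9 of 13 and 30 of 83, and their part was not tested.

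Few genes that build or regulate cilia passed the test. Of 16 dynein assembly factors Daw1 was lower, of 37 intraflagellar transport genes Ttc8 and Ift172, and of 12 ciliogenesis regulators none (2.04% of all genes were lower). Ccdc103 was lower in the 6-marker cells among 16 assembly factors and none of 38 and 14 genes in the other lists passed (1.56% of all genes were lower). Of the intraflagellar transport genes, 27 of 37 had a negative log2 fold change in both genotypes and 0 a positive one in the 823 cells, with a list median of −0.46, against 5 negative and 13 positive of 38 in the 6-marker cells. Of all genes, 2956 of 9620 were negative in both genotypes and 3023 positive in the 823 cells. In the 6-marker cells these were 3908 and 4309 of 13558, and the positive count of the list there is near the latter share. The plot of list medians sets the lists of both sets side by side.

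**Figure D4:**
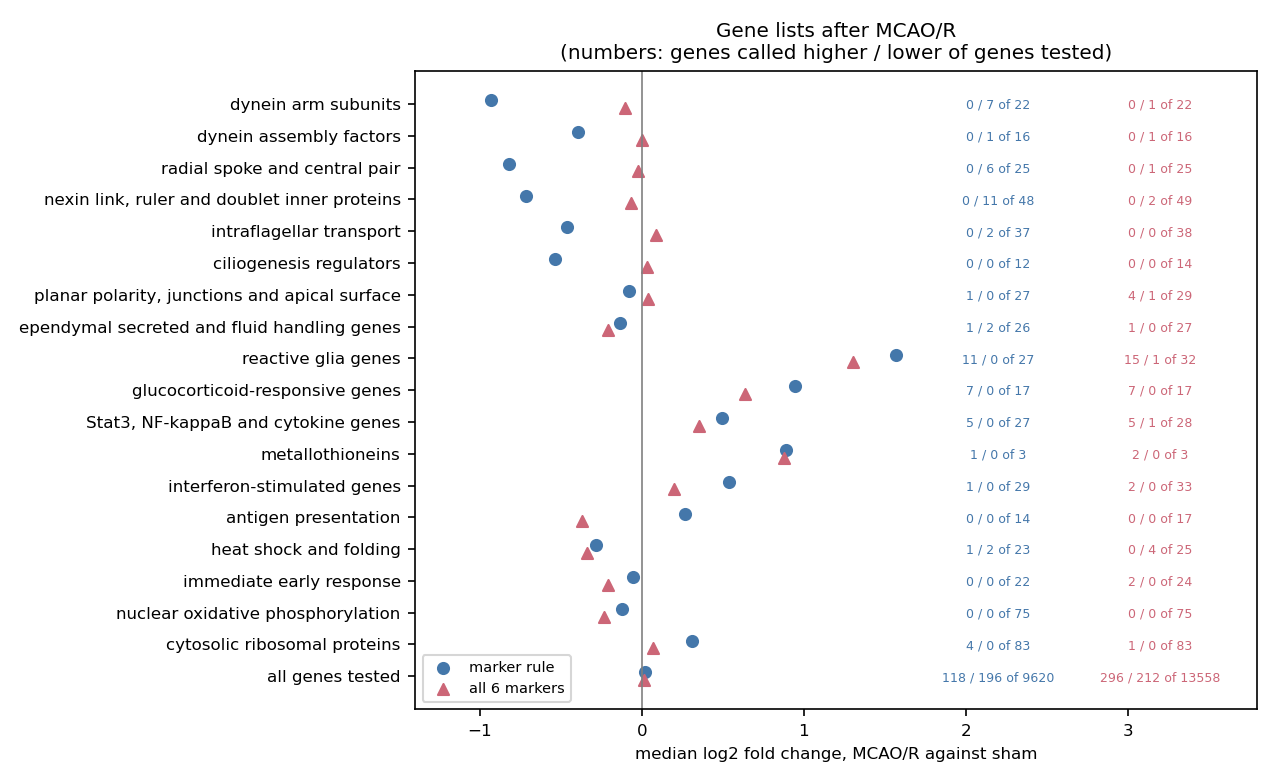
Median log2 fold change of each gene list between MCAO/R and sham libraries (x axis) in cells of the marker rule (circles) and cells with all 6 markers (triangles), with the number of genes called higher and lower of those tested. Reactive glia genes lie at 1.57 and 1.31 and glucocorticoid-responsive genes at 0.95 and 0.64, whereas dynein arm genes lie at −0.93 and −0.10.

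Among the largest decreases, 5 genes outside the axoneme lists passed in both sets. Calb1, a calcium-binding protein, was at 79.1, 219 and 256 CPM in sham + WT, 38.0 and 201 in sham + Lrg1-/-, 32.3 and 32.0 in MCAO/R + WT and 12.5, 19.6 and 33.8 in MCAO/R + Lrg1-/- (−2.32 ± 0.450, adjusted p = 0.0208). With all 6 markers it lay at 80.6 to 207 CPM in sham and 25.6 to 54.5 CPM after MCAO/R (−1.86 ± 0.252, adjusted p = 0.00271, kept in 11 of 11 fits). Mrln, which encodes a micropeptide that inhibits the calcium pump SERCA, was at 21.9 to 53.2 CPM in sham and 0 to 6.52 CPM after MCAO/R (−3.51 ± 0.591, adjusted p = 0.00853), and at 23.3 to 51.2 and 6.91 to 15.9 CPM in 6-marker cells (−1.86 ± 0.203, adjusted p = 0.000633, kept in 11 of 11 fits). Adamts17, a metalloprotease, fell by 3.82 on the log2 scale (adjusted p = 0.0151) and by 1.40 in the 6-marker cells (adjusted p = 0.00855). Diaph3 and Trmt9b were the others, while Flacc1, Slc35f3, Mir670hg, Reln, Dnah14, Ccbe1 and Iqch passed in the 823 cells alone, at −0.16 to −1.01 and adjusted p of 0.0878 to 0.825 in the 6-marker cells.

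Within WT mice, MCAO/R against sham gave 5 genes of 9620 (0.052%). Serpina3n, S100a4, Zbtb16 and Matn2 were the 4 higher (0.0416% of genes, with 0.0104% lower), where 25.4% of genes did not overlap between the groups. Matn2, a matrix protein, was at 7.53, 5.47 and 8.54 CPM in sham + WT and 96.9 and 133 CPM in MCAO/R + WT (3.90 ± 0.430, adjusted p = 0.00213). The count became 0 without sham + WT replicate 1 or 2, 2 without sham + WT replicate 3 and 8 to 16 without one of the MCAO/R libraries, of either genotype. Without a MCAO/R + WT library that group is a lone library. Among 6-marker cells 52 of 13558 genes passed (0.384%; 0.273% higher and 0.111% lower, with 37% not overlapping), and these 4 higher genes were among them. The others included Gfap (2.33 ± 0.266, adjusted p = 0.00271), Lgals3, Timp1, C4b, Steap4, Osmr and Vim of the reactive glia list and Tsc22d3, Fkbp5 and Plin4 of the glucocorticoid list. That count ran from 7 without MCAO/R + WT replicate 1 and 8, 13 and 14 without sham + WT replicates 3, 2 and 1 to 131 without sham + Lrg1-/- replicate 5.

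Within Lrg1-/- mice 115 of 9620 genes passed (1.2%; 23 or 0.239% higher and 92 or 0.956% lower, with 33.3% not overlapping). Replicates 1 and 2 of MCAO/R + Lrg1-/- held Xist and almost no Y-linked UMIs, the reverse of the sham libraries, and the part of this was not tested. The sham side rested on the 37 cells of replicates 1 and 5. With edgeR no gene passed with the replicate number as a block or at a mitochondrial limit of 10%, with 1301 and 1328 at an unadjusted p under 0.05, while 21 of 2208 passed with cells thinned to 1000 UMIs, and DESeq2 gave 174. Serpina3n and Spp1 had 0 UMIs on that side and 717 and 7811 after MCAO/R, at least 19.8-fold and 216-fold higher when 3 counts stand for 0. Gfap had 3 UMIs on the sham side and 1143 after MCAO/R (5.33 ± 1.08, adjusted p = 0.0440). The genes that were lower with the largest change included Rsph14, Fbxl13 and Cabcoco1, genes of motile cilia, at −2.89, −2.59 and −2.62, and in the 6-marker cells they were at −0.79, −0.47 and −0.74, with adjusted p of 0.105, 0.406 and 0.0988. Of the 249 genes that passed in the 6-marker cells (1.84%; 1.16% higher and 0.679% lower, with 16.1% not overlapping), 11 passed in the 823 cells in the same direction. The 6-marker count was 22 and 43 without MCAO/R + Lrg1-/- replicates 2 and 5, 108, 139 and 147 without sham + WT replicate 2, sham + Lrg1-/- replicate 2 and sham + WT replicate 1, and 160 without sham + Lrg1-/- replicate 5. It was 1031 without MCAO/R + Lrg1-/- replicate 1. In the 823 cells the count was 0 without sham + Lrg1-/- replicate 5, 1 without sham + Lrg1-/- replicate 1 or MCAO/R + Lrg1-/- replicate 2, 9 to 37 without any 1 of the WT libraries or MCAO/R + Lrg1-/- replicate 5, and 304 without MCAO/R + Lrg1-/- replicate 1.

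Between Lrg1-/- and WT mice after MCAO/R, 9 of 9620 genes passed (0.0936%; 0.0832% higher and 0.0104% lower, with 27% not overlapping). Hbb-bt, Hba-a1, Hba-a2, Hbb-bs and Alas2, genes of red blood cells, Ttr, the leading gene of the choroid plexus, Spp1 and Tent5c were higher in Lrg1-/- mice, and Thrsp, a regulator of fatty acid synthesis, was lower. Hbb-bs was at 16.1 and 4.37 CPM in WT and 848, 23134 and 18802 CPM in Lrg1-/- mice, the same direction as the red blood cell share of the libraries given above. Thrsp was at 98.9 and 130 CPM in WT and 0, 1.86 and 8.62 CPM in Lrg1-/- mice (−4.37 ± 0.634, adjusted p = 0.0178), but at 1.38 and 1.93 CPM and 0.909 to 6.10 CPM in the 6-marker cells (0.49 ± 0.923, adjusted p = 0.800). The count was 0 without MCAO/R + WT replicate 2, 1 without MCAO/R + WT replicate 1, 5 without sham + WT replicate 2 or 3 and 18 or 19 without MCAO/R + Lrg1-/- replicate 1 or 5. It was 1 with the replicate number as a block, 2 without haemoglobin and choroid plexus genes, 31 with DESeq2, 128 with no filter on low counts, 148 with at least 4 markers and 106 in 6-marker cells with choroid plexus genes allowed. The sex-linked genes of replicates 1 and 2 of this group differ from those of the WT mice, and with both left out 93 genes passed. That fit leaves replicate 5 alone in its group, with 381 cells of which 53% lay below 0.5% in axoneme share, and assumes that it varies like the libraries of the other groups. Among 6-marker cells 29 genes passed (0.214%; 0.148% higher and 0.0664% lower, with 42.7% not overlapping), with Lrg1 itself among the 9 lower (35 and 52 UMIs in WT and 0 in each Lrg1-/- library, adjusted p = 0.00553) and 4 ribosomal protein genes and Calr, a chaperone, among the 20 higher. That count was 623 without sham + Lrg1-/- replicate 5, 8 to 16 without any 1 of the other sham libraries, 1 and 2 without MCAO/R + WT replicates 1 and 2, and 8 and 85 without MCAO/R + Lrg1-/- replicates 2 and 5.

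In sham mice 4 of 9620 genes passed between Lrg1-/- and WT (0.0416%, with 25.8% not overlapping), and all 4 were haemoglobin genes. None passed without sham + Lrg1-/- replicate 1, without any 1 of the sham + WT libraries or with the replicate number as a block, with 503 to 782 at an unadjusted p under 0.05 in these edgeR fits, and DESeq2 gave 8 over all libraries. Hbb-bs was at 5.47 to 32.0 CPM in WT and 29540 and 8381 CPM in Lrg1-/- mice. Among 6-marker cells 2490 of 13558 genes passed (18.4%; 1475 or 10.9% higher and 1015 or 7.49% lower, with 39.3% not overlapping), among them 82 of 83 ribosomal protein genes, 61 of 75 nuclear genes of oxidative phosphorylation and 12 of 17 antigen presentation genes higher and 12 of 22 dynein arm and 14 of 25 radial spoke and central pair genes lower. Microglia and macrophage genes (6 of 12), endothelial and mural genes (5 of 11) and red blood cell genes (7 of 7) were higher too. In that set sham + Lrg1-/- replicate 5 held red blood cell genes at 10.3% and choroid plexus genes at 5.2% of UMIs, replicate 1 at 2.04% and 2.39% and replicate 2 at 3.35% and 3.34%, against at most 0.00992% and 0.641% in sham + WT. The count was 298 without that replicate, 33, 38 and 1177 without sham + WT replicates 1, 2 and 3, and the part of foreign RNA in it was not tested. It was 5 with the replicate number as a block, and 55 of 11270 genes in 6-marker cells with choroid plexus genes allowed. The list counts above come from the fit of all 11 libraries and were not made for these other fits.

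Whether the response to MCAO/R differed between the genotypes was tested as an interaction. None of 9620 genes passed with edgeR or DESeq2, with 667 at an unadjusted p under 0.05, and none of 13558 in the 6-marker cells, with 939. Leaving out MCAO/R + Lrg1-/- replicate 5 gave 2 and 3 genes. These designs hold 2 or 3 mice a group, and a missed threshold does not show that the responses were alike.

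Against neighbouring cell types the test compared the MCAO/R response within libraries that held at least 20 cells of both types. Against astrocytes (8 libraries) none of 12931 genes passed with edgeR, with 1101 at an unadjusted p under 0.05, and 6 passed with DESeq2. Against choroid plexus epithelium (7 libraries) none of 10769 passed, with 1037 at an unadjusted p under 0.05, and 18 with DESeq2. In the first of these fits sham + Lrg1-/- was 1 library, and in the second sham + Lrg1-/- and MCAO/R + WT were 1 each, so lone libraries were assumed to vary like the others. With all 6 markers 122 of 14776 genes (0.826%; 0.372% higher) differed from astrocytes over 11 libraries, and 12 of 14541 (0.0825%; 0.055% higher and 0.0275% lower) from choroid plexus epithelium over 10, with MCAO/R + WT again 1 library. Of 35 reactive glia genes, 5 rose less or fell more in ependymal cells than in astrocytes (0.453% of all genes), namely Ptgs2, Hspb1, Lgals3, Icam1 and Lcn2, and none more, and the list's median difference was −1.41 against −0.07 for all genes. Lgals3 differed by −2.86 ± 0.605 (adjusted p = 0.0370) and Icam1, an adhesion molecule, by −2.49 ± 0.539 (adjusted p = 0.0370). Celsr2 responded more in ependymal cells, by 1.49 ± 0.304 (adjusted p = 0.0353). Retnlg, a neutrophil gene, and Dcn, a fibroblast gene, were also among the 67 that rose less or fell more in ependymal cells, by −7.10 ± 0.913 and −7.48 ± 1.47. So were Il1b and the endothelial and mural genes Rgs5 and Vtn. In the 6-marker cells endothelial and mural genes took 0.118% to 0.796% of UMIs in sham libraries and 0.113% to 0.308% after MCAO/R. The exclusion genes were applied to the astrocytes and not to the 6-marker cells. The part of foreign RNA in these differences was not tested, and no 6-marker fit against astrocytes left a library out.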

How the data were processed

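Members, gene lists and tests were chosen with earlier results of these data known. The deposited values were raw UMI counts per gene and barcode, made by the authors with Cell Ranger (7.0.1 per the file headers) and STAR on mm10 per the submitters' processing notes. Reads came from 10x 3′ libraries of tissue digested at 37 °C and treated with red blood cell lysis buffer. Counts were filtered by the study's limits, and raw counts of member cells were summed per mouse (at least 10 cells, since the planned 20 left 1 sham + Lrg1-/- library) and tested with edgeR 4.0.16 under R 4.3.3 (TMM, filterByExpr, quasi-likelihood, Benjamini-Hochberg). Levels are CPM scaled by TMM, and SE is the log2 fold change over the root of F. Library totals ran from 37159497 to 171813031 UMIs, and ependymal sums from 52734 to 1727479. DESeq2 1.42.0, no filter, RLE factors, other cell limits, thinning, a replicate block and left-out libraries were alternatives. Doublets were not removed: Scrublet's threshold marked under 5 cells in 5 libraries, so removal of the 6% highest scores was an alternative. Antisense and near-identical genes (Hba-a1, Hba-a2) can share reads. Named genes were the 12 largest changes each way that passed without overlap between groups (marker genes, unnamed gene models and mitochondrially encoded genes left out), the 20 leading genes, members of the lists and Lrg1. Coordinates are GENCODE M21 on GRCm38. The fits were tested on simulated data. In the fits, p-values rest on an estimate of the spread between mice that all groups share. Those of the cell shares come from permuted group labels. 1 gene that passed a test is not reported here.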

Additional observations from a re-analysis of the deposited data

Results flagged for a closer look

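Abtb2 and Cerk were singled out because their fitted log2 fold changes had opposite signs in the WT and Lrg1-/- mice, although neither gene passed in WT mice. The log2 fold change of Abtb2 after MCAO/R was −0.47 in WT and 7.97 in Lrg1-/- mice, and that of Cerk −0.83 and 7.58. The sham + Lrg1-/- libraries held 0 UMIs of either gene in 37 cells, so the fitted sizes depend on the prior count: from 3 counts over the group, Abtb2 was at least 5.0-fold and Cerk at least 3.37-fold higher. The difference between the genotypes was not tested for these genes apart from the interaction over all genes, in which none passed. In cells with all 6 markers Abtb2 was at 1.95 (adjusted p = 0.201, edgeR) and Cerk at −0.12 (adjusted p = 0.909) in Lrg1-/- mice.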

How the results depend on the processing

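Among named genes, 712 values kept direction and side of the threshold and 490 the direction only under settings listed in advance, and 3 turned direction under settings added after seeing the data: Thrsp (0.49) and Cerk (−0.12) in 6-marker cells, and Ppargc1a (0.12) in 6-marker cells with choroid plexus genes allowed. The cause was not tested. Gene counts follow in the order Lrg1-/- against WT after MCAO/R, the same in sham, MCAO/R against sham in WT, in Lrg1-/- and over both genotypes. They were 31, 8, 22, 174 and 302 with DESeq2, which gave 6 against astrocytes and 18 against choroid plexus, and 128, 8, 67, 146 and 416 with no filter. Cells with all 6 markers gave 29, 2490, 52, 249 and 508 (122 and 12 against the other types), those with choroid plexus genes allowed 106, 55, 209, 89 and 617, and at least 4 markers 148, 6, 31, 209 and 478. At least 20 cells a library gave 16, 7, 5, 4 and 170, thinning 24, 12, 23, 21 and 45, and a mitochondrial limit of 10% gave 9, 5, 2, 0 and 3. Without haemoglobin and choroid plexus genes there were 2, 0, 8, 49 and 288, and without the highest doublet scores 8, 4, 5, 66 and 280. Without MCAO/R + Lrg1-/- replicates 1 and 2 there were 93, 6, 13, 9 and 247, and without sham + WT replicate 1 and MCAO/R + Lrg1-/- replicate 5, 14, 3, 3, 10 and 109, with 1 for the interaction. At least 50 cells left sham + WT replicate 1 (124 cells) and MCAO/R + WT replicate 2 (50 cells) alone in their groups. No counts are given from that fit for Lrg1-/- against WT after MCAO/R or for MCAO/R against sham in WT. The other comparisons at that limit, and cells with no exclusion gene, could not be fitted. Leaving out 1 library gave 0 to 19, 0 to 6, 0 to 16, 0 to 304 and 35 to 557, with 0 to 2 for the interaction, 0 to 1 against astrocytes and 0 to 2 against choroid plexus. With the replicate number as a block the counts were 1, 0, 1, 0 and 15 (7, 5, 6, 45 and 110 in 6-marker cells). Deviations of same-numbered libraries correlated at −0.13 to 0.131 over 10 pairs, and at −0.248 to 0.0834 over 13 in 6-marker cells. Without the same values for libraries of unlike numbers, these cannot decide whether the numbers pair the mice. The main fits took the libraries as unpaired. The share difference between MCAO/R and sham turned to −0.244 when thinned and −0.178 with all 6 markers. That between Lrg1-/- and WT turned to 0.00394 at the 10% limit, 0.0154 without the highest doublet scores and 0.0235 without haemoglobin-rich cells, and ran from −0.132 to 0.100 with 1 library left out, positive without sham + WT replicate 1, sham + Lrg1-/- replicate 2 (0.0153) or MCAO/R + Lrg1-/- replicate 1 (0.100). The 7 to 39 cells of most sham libraries limit the low genes.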

Other observations

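Of 27 antioxidant and glutathione genes tested in the 6-marker cells, Hmox1 and Gsr were higher after MCAO/R (2.18% of all genes) and Slc40a1 and Tfrc lower (1.56% of all genes). Hmox1, which degrades haem, lay at 4.81 to 32.6 CPM in sham and 17.4 to 155 CPM in MCAO/R libraries (2.50 ± 0.464 on the log2 scale, adjusted p = 0.0135, edgeR). Slc40a1, the iron exporter ferroportin, lay at 16.8 to 49.0 and 7.32 to 15.2 CPM (−1.53 ± 0.271, adjusted p = 0.0103), with no overlap. Tfrc, the transferrin receptor, changed by −1.02 ± 0.229 (adjusted p = 0.0303), and its lowest sham library overlapped. The part of endothelial, mural and choroid plexus RNA in the falls of Slc40a1 and Tfrc was not tested. In the 823 cells of the marker rule Hmox1, Slc40a1 and Tfrc were at 2.75, −0.84 and −0.06, and none of the 4 passed.

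Of 24 immediate early genes tested in the 6-marker cells, Fosl1 and Myc were higher after MCAO/R (2.18% of all genes) and none lower, with a median log2 fold change of −0.21, and none of 22 passed in the 823 cells. Fosl1, an AP-1 subunit, lay at 1.37 to 6.61 CPM in sham and 8.54 to 18.6 CPM after MCAO/R in the 6-marker cells (2.21 ± 0.355, adjusted p = 0.00582). Of 22 radial glia and neural stem genes, Gfap and Vim were higher and Fabp7, Hes1 and Prom1 lower (1.56% of all genes), with a median of 0.01. Hes1, a Notch target, changed by −1.0 ± 0.216 and Fabp7, a fatty acid binding protein of radial glia, by −0.77 ± 0.165. The summed level of the 27 listed genes lay higher after MCAO/R, at 5699 to 8777 CPM against 3837 to 4668 CPM in sham. That sum includes Gfap and Vim, and their part in it was not taken apart. In the 823 cells the sums overlapped, with 4565 CPM in MCAO/R + Lrg1-/- replicate 5 and 4805 CPM in sham + WT replicate 1. Gfap and Vim alone passed among 20 in the 823 cells. Tgm1, a transglutaminase, lay at 0 to 1.32 CPM in sham and 7.24 to 60 CPM after MCAO/R (adjusted p = 0.00146), with 0 UMIs in the sham + Lrg1-/- libraries.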
